A study of Mus musculus with 2 samples.

Results

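The clustered histone genes are the genes whose symbols begin with Hist1h, Hist2h, Hist3h or Hist4h. They were taken by symbol alone from the count tables of 2 single-cell RNA-seq libraries of mouse ileal enteroids, which are small intestinal organoids grown from crypts. There were 62 such genes among the 16665 genes listed in either library, 61 of them listed in the control library and 62 in the library labelled KO. By the letters of the symbol they comprised 5 H1, 16 H2A, 16 H2B, 12 H3 and 13 H4 genes. The study asked what loss of *Taf4*, which encodes a part of the TFIID complex that starts transcription, does to gene expression in these cultures. Both libraries came from C57Bl6/129sv mice 4 months of age, and live cells were sorted before capture with a kit that reads transcripts from their 3′ end. In the library labelled KO the enteroids carried *Taf4* lox/lox and VilCreERT2, a 4-OHT-inducible Cre driven by the villin promoter and so restricted to the intestinal epithelium, and they received 1 µM 4-hydroxytamoxifen (4-OHT) for 3 days. The control enteroids carried *Taf4* lox/lox without Cre according to the methods of the study, which name 4-OHT as their treatment, whereas the deposited label calls them WT treated with ethanol.

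Each condition was 1 library, so there were no replicates and no test between conditions. Levels are unique molecular identifiers (UMIs, 1 per captured molecule) of a gene per 10000 UMIs of the same cells, and ratios are log2 of the level in the library labelled KO over that in the control library. The 95% intervals given with levels (exact Poisson), ratios (exact conditional binomial) and shares of cells (exact Clopper-Pearson) cover counting error only. A ratio was counted as past the fold at log2 1 or −1, with at least 50 UMIs over both libraries.

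*Taf4* itself was not lower in the library labelled KO. It had 278 UMIs in the control library, 0.0696 per 10000, and 236 UMIs in the library labelled KO, 0.0944 per 10000, with a log2 ratio of 0.44 (0.18 to 0.70). Its paralog *Taf4b* had 118 and 98 UMIs, with a log2 ratio of 0.41 (0.0073 to 0.81). Reads from the 3′ end do not check a deletion elsewhere in the gene, and the deleted exons are not given in the sources used here. Every direction below is therefore drawn from the label. The control library held 39947009 UMIs in 2563 cells with a median of 16749 per cell, and the library labelled KO 24990128 UMIs in 1811 cells with a median of 2254. Cells with under 2000 UMIs made up 17.3% of the control library and 49.1% of the library labelled KO, and the libraries shared 2 cell barcodes. Epithelial markers (*Epcam*, *Krt8*, *Krt18*, *Cdh1* and *Vil1*) summed to 33.6 and 49.3 UMIs per 10000, whereas mesenchymal markers had 7 and 3 UMIs, endothelial markers 13 and 11, and immune markers 0 and 3.

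Histones H2A, H2B, H3 and H4 form the protein core around which DNA winds, and H1 binds the linker DNA between cores. Most of the genes of these proteins lie in clusters and are read during S phase, when new DNA has to be packaged. Their mRNAs are unusual in that most end in a short hairpin rather than a poly(A) tail, are bound there by SLBP and are degraded when DNA replication stops. Some members can also be processed to polyadenylated mRNAs, which are known from cells that have left the cell cycle. Capture on the 3′ end relies on poly(A), so the levels count the molecules captured, the polyadenylated share of each mRNA was not measured, and levels of different genes are not compared as amounts of mRNA.

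Summed over the 62 genes, the control library had 20336 UMIs, 5.09 per 10000 (5.02 to 5.16), and the library labelled KO had 15804 UMIs, 6.32 per 10000 (6.23 to 6.42), a log2 ratio of 0.31 (0.28 to 0.34). The sum combined genes of opposite direction, and 1 H2B gene, *Hist1h2bc*, had the most UMIs of the members in the library labelled KO. It had 2194 UMIs in the control library, 0.549 per 10000 (0.526 to 0.573), and 7691 in the library labelled KO, 3.08 per 10000 (3.01 to 3.15). The log2 ratio was 2.49 (2.42 to 2.55), and the share of this gene in all clustered histone UMIs was 10.8% in the control library and 48.7% in the library labelled KO. Without it, the other 61 genes together were at 4.54 per 10000 (4.48 to 4.61) in the control library and 3.25 (3.18 to 3.32) in the library labelled KO, a log2 ratio of −0.48 (−0.52 to −0.45). This lower sum held for cells with at least 2000 UMIs and turned to a higher one in shallower cells, as the values by depth show. Summed markers of cell types differed as well over all cells. Those of stem cells were lower, at 16.8 and 10.0 UMIs per 10000, as was *Mki67*, a gene of cycling cells, at 1.01 and 0.317. Markers were higher for enterocytes (25.9 and 59.6), Paneth and goblet cells (64.1 and 213) and enteroendocrine cells (14.2 and 40.5). Their part in the members' difference was not tested. The ratios of all 11941 genes tested had their median at 0.17. A total reduced by the mitochondrial and ribosomal protein genes, *Gm42418* and *AY036118* moved it to −0.0060. With that total the other members were at −0.67 and *Hist1h2bc* at 2.30.

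**Figure D1:**
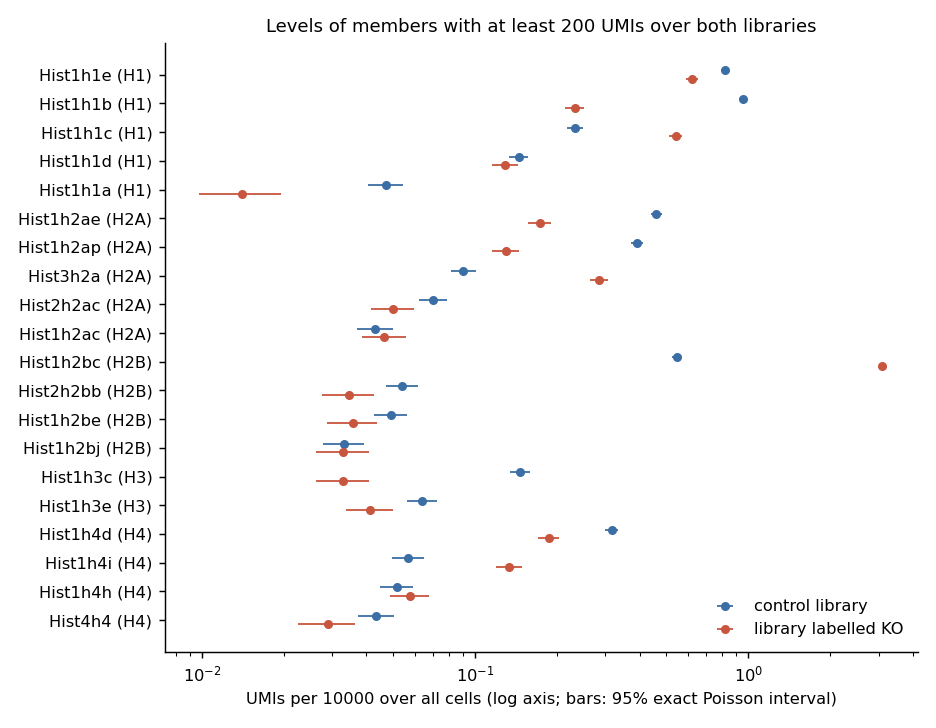
Level of each clustered histone gene with at least 200 UMIs over both libraries, in UMIs per 10000 over all cells on a log axis, for the control library (blue) and the library labelled KO (red), ordered by histone type; points are levels and bars 95% exact Poisson intervals. *Hist1h2bc* lies at 0.549 in the control library and at 3.08 in the library labelled KO, while *Hist1h1b* lies at 0.955 and 0.232.

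By histone type, H1 genes summed to 2.20 UMIs per 10000 in the control library and 1.54 in the library labelled KO (log2 ratio −0.52), H2A genes to 1.17 and 0.776 (−0.59), H3 genes to 0.352 and 0.193 (−0.87) and H4 genes to 0.529 and 0.489 (−0.11). All 4 of these ratios had the opposite sign when each cell had equal weight or was thinned to 500 UMIs, and in cells with under 2000 UMIs. H2B genes summed to 0.842 and 3.33 (1.98), and to 0.293 and 0.248 without *Hist1h2bc* (−0.24, −0.39 to −0.10).

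Of the 62 genes, 40 had at least 50 UMIs over both libraries. Among them 7 were higher past the fold, against a background of 8.31% of all genes tested, and 11 were lower past the fold, against 4.38%. The other 22 lay between, and the median log2 ratio of the 40 was −0.48 beside 0.17 for all genes. The interval of the ratio, which covers counting error only, lay above 0 for 8 and below 0 for 20. No share over all genes is given beside these counts, so they are not read as a result about the members. The remaining 22 members had 563 UMIs in all and were not read for direction. The lowest was *Hist1h2ah*, with 1 UMI in each library, and *Hist1h4m* had 0 UMIs in the control library, which allows up to 3, and 6 in the library labelled KO.

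**Figure D2:**
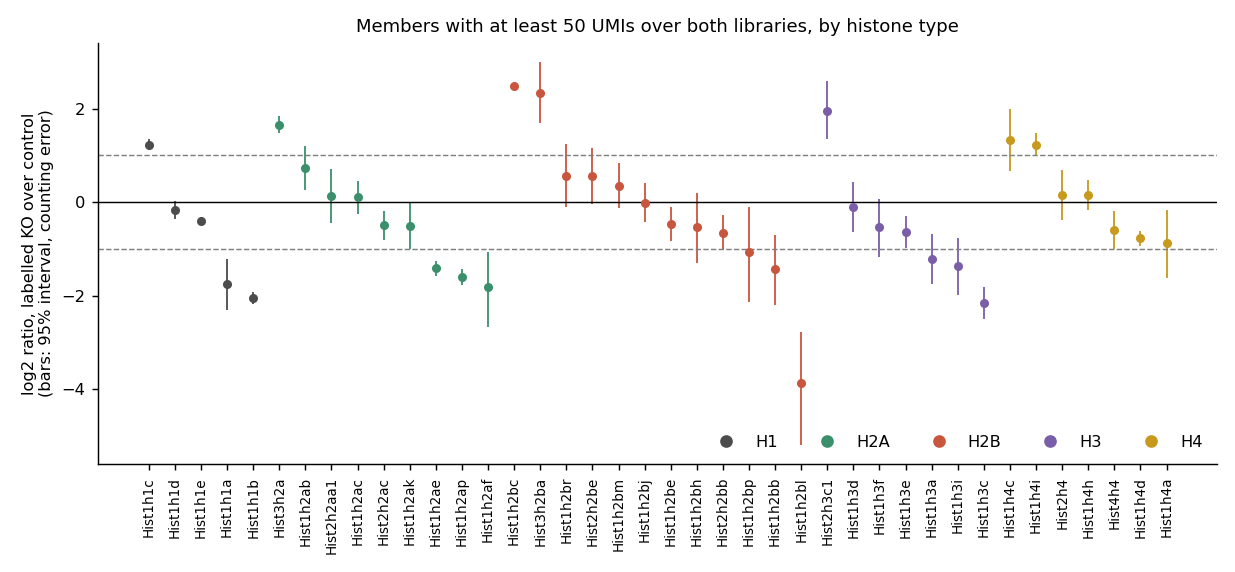
Log2 ratio of the level in the library labelled KO over that in the control library for the 40 members with at least 50 UMIs, grouped and coloured by histone type; bars are 95% intervals for counting error and dashed lines mark log2 1 and −1. Each type holds genes on both sides of 0 over all cells, from *Hist1h2bc* at 2.49 to *Hist1h2bl* at −3.86.

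Among the linker histones, the genes went in different directions. *Hist1h1e*, which encodes H1.4, had 3289 UMIs (0.823 per 10000) in the control library and 1559 (0.624) in the library labelled KO, a log2 ratio of −0.40 (−0.49 to −0.31). *Hist1h1b*, the gene of H1.5, had 3816 UMIs (0.955) and 579 (0.232), a ratio of −2.04 (−2.17 to −1.92). *Hist1h1a*, the gene of H1.1, had 188 UMIs (0.0471) and 35 (0.0140), a ratio of −1.75. Against these, *Hist1h1c*, the gene of H1.2, had 928 UMIs (0.232) and 1357 (0.543), a ratio of 1.22 (1.10 to 1.35). *Hist1h1d* was at 0.144 and 0.128, and its interval of −0.37 to 0.03 held 0.

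Of the 9 H2A genes tested 3 were lower past the fold (background 4.38%) and 1 higher (8.31%). *Hist1h2ae* was at 0.461 and 0.172 UMIs per 10000, from 1840 and 431 UMIs (−1.42, −1.57 to −1.27). *Hist1h2ap*, whose symbol matches more than 1 gene in RefSeq, was at 0.392 and 0.129 (−1.60, −1.78 to −1.43). *Hist1h2af* had 96 and 17 UMIs (−1.82). The higher gene was *Hist3h2a*, a member outside the large cluster, with 362 UMIs (0.0906) in the control library and 712 (0.285) in the library labelled KO, a log2 ratio of 1.65 (1.47 to 1.84). *Hist1h2ab*, with 79 and 82 UMIs, was higher by less (0.73, 0.27 to 1.19).

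H2B genes other than *Hist1h2bc* covered the whole range. *Hist3h2ba*, the H2B gene beside *Hist3h2a*, had 28 UMIs in the control library and 88 in the library labelled KO, a log2 ratio of 2.33 (1.70 to 3.00). At the other end, *Hist1h2bl* had 162 and 7 UMIs, a ratio of −3.86 (−5.19 to −2.78), the lowest among the 40. *Hist2h2bb* (216 and 86 UMIs, −0.65) and *Hist1h2be* (196 and 89 UMIs, −0.46) were lower by less than the fold, and *Hist1h2bj* was at 0.0330 and 0.0328 per 10000. H2B proteins of this family are close copies of each other, so reads of such genes may be shared or dropped in counting, and *Hist1h2bl* is given with that limit.

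H3 and H4 genes were found on both sides of 0. Of 7 H3 genes tested 3 were lower past the fold (background 4.38%), *Hist1h3c* with 583 and 82 UMIs (−2.15, −2.50 to −1.82), *Hist1h3i* with 123 and 30 (−1.36) and *Hist1h3a* with 144 and 39 (−1.21). *Hist1h3e* was lower by less, from 256 to 103 UMIs (−0.64). *Hist2h3c1* on the smaller cluster went the other way, with 33 and 80 UMIs (1.95, 1.35 to 2.59). Of the 7 H4 genes tested 0 were lower past the fold over all cells (background 4.38%). In cells with at least 2000 UMIs 2 of the 7 were lower past it (4.56%). The one with the most UMIs, *Hist1h4d*, had 1266 and 464 (−0.77), with a ratio of −1.03 in those deeper cells and 0.63 in shallower ones. *Hist1h4i*, with 227 and 332 UMIs (1.23, 0.98 to 1.48), and *Hist1h4c*, with 34 and 53 (1.32, 0.67 to 1.98), were higher, *Hist1h4h* was at 0.0518 and 0.0576 per 10000, and Hist4h4 at 0.0433 and 0.0288 (−0.59).

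The ends of the annotated transcripts show the hairpin that sets these mRNAs apart. It was searched on the transcribed strand as a stem of 6 bases that begins with GG, a loop of 4 bases that begins with TT and a second arm that pairs with all 6 bases of the first, in the transcripts of the GENCODE vM1 annotation, which was matched by gene name and used without coordinates. Of the 61 members found there 41 had it in an annotated transcript (67.2%), against 0.509% of 22611 protein-coding genes. The polyadenylation hexamer AATAAA stood in the last 40 bases of the longest transcript of 10 members (16.4%), against 52.4% of genes. The ends of 8 named members from both sides of the comparison and of *Hist1h2bc* are given with 7 bases on either side of the hairpin, 5′ to 3′, where capitals mark the hairpin or, in *Hist1h2bc*, the hexamer.
Hist1h1e: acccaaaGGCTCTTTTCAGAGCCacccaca
Hist1h1c: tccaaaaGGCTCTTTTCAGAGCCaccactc
Hist1h2ae: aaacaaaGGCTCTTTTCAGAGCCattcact
Hist3h2a: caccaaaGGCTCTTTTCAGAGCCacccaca
Hist3h2ba: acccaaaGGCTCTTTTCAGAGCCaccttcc
Hist1h3c: aaaaaaaGGCTCTTTTAAGAGCCacctaag
Hist1h4d: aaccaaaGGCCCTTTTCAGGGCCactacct
Hist1h4i: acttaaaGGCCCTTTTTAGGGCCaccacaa
Hist1h2bc: tatAATAAAtgtcatgtaaagcaaaaaaaa

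Of the 27 members with the hairpin and at least 50 UMIs, 6 were higher and 5 lower past the fold over all cells (median log2 ratio −0.10). Of the 13 without a match 1 was higher and 6 lower, with a median of −0.87 (background 8.31% higher and 4.38% lower, median 0.17). A missing match says only that these letters are not in the annotated transcript, which had 381 bases for *Hist1h2bl* and 312 for Hist4h4. The groups are therefore not a comparison of genes with and without a hairpin. Members with the same hairpin differed from each other, as *Hist1h1e* and *Hist3h2a* carry the same 16 bases and had log2 ratios of −0.40 and 1.65. The length that follows the hairpin differed as well. In the annotation *Hist1h1e* ended 27 bases and *Hist1h4d* 25 bases after it, whereas *Hist1h1c* went on for 839 bases, *Hist3h2a* for 1487, *Hist3h2ba* for 166 and *Hist1h4i* for 150. Neither short nor long ends went with 1 direction throughout. *Hist1h1d* went on for 3050 bases (log2 ratio −0.17), *Hist1h2be* for 1788 (−0.46) and *Hist1h3e* for 369 (−0.64), whereas *Hist1h4c* ended after 29 (1.32) and *Hist1h2ab* after 6 (0.73). *Hist1h2bc*, in a transcript of 736 bases, ended 21 bases after the hexamer and had no match to the hairpin, which says only that these letters are not in this transcript. *Hist1h2ae*, which went on for 151 bases after its hairpin and had the hexamer, was lower past the fold. The genes named here were picked, and the part of the transcript end in the direction was not tested.

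Grouped by the annotated transcript, at a length chosen after the values were seen and with no test, the 12 members with over 1000 bases and at least 50 UMIs had a median log2 ratio of 0.13, with 3 past the fold upwards and 0 downwards, where 8.31% and 4.38% of all genes tested were so. They summed to 0.704 UMIs per 10000 in the control library and 1.19 in the library labelled KO, from 2812 and 2980 UMIs. Of these, *Hist1h1c* gave 928 and 1357 and *Hist3h2a* 362 and 712. The 28 members with up to 1000 bases had a median of −0.61, with 4 upwards and 11 downwards. Their sum, which contains *Hist1h2bc*, was also higher in the library labelled KO, at 4.31 and 5.04. Of the members with the hexamer 9 had at least 50 UMIs, with a median of 0.56, and 31 without it had a median of −0.50. These are annotated and not observed ends, and where the reads of these libraries fall within each gene was not analysed here.

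In the genome of the files (GRCm38.p6 of RefSeq, the patch release of mm10), 49 of the 61 members placed lie on chromosome 13 between 21715711 and 23764412, 9 on chromosome 3 between 96219885 and 96270192, 2 on chromosome 11 between 58948911 and 58955192 and 1, Hist4h4, on chromosome 6. The genes on chromosome 13 summed to 4.36 UMIs per 10000 in the control library and 5.65 in the library labelled KO, and this sum contains *Hist1h2bc*. Those on chromosome 3 summed to 0.197 and 0.192 (log2 ratio −0.04, −0.21 to 0.13). *Hist3h2a* and *Hist3h2ba* on chromosome 11 summed to 0.0976 and 0.320 (1.71, 1.54 to 1.89), so that both genes of this site were higher.

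H2A and H2B genes often stand head to head and share the stretch of DNA between them. There were 9 such pairs with starts at most 500 bases apart, and in 2 of them both genes had at least 50 UMIs. *Hist2h2ac* (−0.49) and *Hist2h2be* (0.56, interval −0.04 to 1.16) start with 191 bases between them on chromosome 3. *Hist1h2ac* and *Hist1h2bc* start on chromosome 13 with 239 bases between them. *Hist1h2ac* had 172 UMIs in the control library (0.0431 per 10000) and 116 in the library labelled KO (0.0464), a log2 ratio of 0.11 (−0.24 to 0.46), beside 2.49 for *Hist1h2bc* on the other side of the same stretch. RefSeq's promoter entry of *Hist1h2ac* (chr13:23683910-23684209, minus strand, GRCm38.p6, 250 bases before to 50 after its start) spans this stretch and is shown for that reason, as is that of *Hist1h1b* (chr13:21780576-21780875, minus strand) as a gene that was lower. Capitals mark the motif TATAAA, the box CCAAT and the octamer ATTTGCAT on either strand.
Hist1h2ac: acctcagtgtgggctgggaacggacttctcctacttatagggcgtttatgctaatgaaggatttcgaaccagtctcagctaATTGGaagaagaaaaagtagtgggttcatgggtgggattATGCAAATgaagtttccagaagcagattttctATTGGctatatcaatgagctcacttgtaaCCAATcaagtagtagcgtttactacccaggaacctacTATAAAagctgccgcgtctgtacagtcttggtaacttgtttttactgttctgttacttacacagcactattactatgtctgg
Hist1h1b: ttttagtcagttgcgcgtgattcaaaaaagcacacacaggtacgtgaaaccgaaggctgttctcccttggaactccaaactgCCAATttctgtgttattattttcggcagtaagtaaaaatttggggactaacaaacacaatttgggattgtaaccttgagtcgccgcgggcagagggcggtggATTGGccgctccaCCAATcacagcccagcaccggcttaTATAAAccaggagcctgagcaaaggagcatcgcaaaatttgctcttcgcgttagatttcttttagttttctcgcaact

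The stretch between *Hist1h2ac* and *Hist1h2bc* holds 3 copies of CCAAT, 1 octamer and 1 TATAAA, and the *Hist1h1b* window 3, 0 and 1. Promoter windows of 56 members were found, and *Hist1h2bc* had none of its own. TATAAA was in 33 of the 56 (58.9%), against 14.2% of 27025 windows of the same length, and CCAAT in 47 (83.9%), against 37.9%. All 44 windows of H1, H2A, H2B and H3 genes had a CCAAT, and 3 of 12 windows of H4 genes had one. The octamer was in 11 windows (19.6%), 6 of H2A and 5 of H2B genes, against 1.75% of all. The marked matches do not overlap in the windows shown, and a match in a window is a description and not a site of binding.

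Most clustered histone genes are read during S phase, so levels of the members were next taken in cells called G1, S or G2/M. The calls came from lists of other genes (Seurat's cell cycle lists, which hold no clustered histone gene). Each cell was first thinned to 5000 UMIs, which left out 575 control cells and 1053 cells of the library labelled KO that were shallower. In the control library 1057 cells were called G1, 571 S and 360 G2/M, and in the library labelled KO 488, 179 and 91. Free RNA from broken cells can enter such calls, and its share was not tested.

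In the control library the members other than *Hist1h2bc* were at 1.29 UMIs per 10000 in G1, 4.45 in S and 11.7 in G2/M. In the library labelled KO they were at 1.97, 2.54 and 6.55. The order of the phases was thus the same in both libraries, with a smaller span in the library labelled KO. The log2 ratio between libraries was 0.61 (0.53 to 0.69) in G1, −0.81 (−0.90 to −0.72) in S and −0.84 (−0.92 to −0.77) in G2/M, and the last turned to 0.11 when phases were called without thinning. In cells called G1, 6 of 19 members with at least 50 UMIs were higher past the fold (background 5.49%) and 1 lower (2.82%). In S these were 3 (5.93%) and 11 (3.5%) of 24, and in G2/M 4 (6.29%) and 10 (3.55%) of 29. H3 genes had the lowest of these ratios in S, with 0.392 and 0.145 UMIs per 10000 (−1.44, −1.80 to −1.09). Replacement histones, whose genes lie outside the clusters, summed to 40.2, 49.7 and 68.3 in G1, S and G2/M cells of the control library. In the library labelled KO they summed to 41.9, 51.5 and 67.5. This list was thus not level across the phases, and it holds *Cenpa* of the G2/M list. The cells called S differed in other genes as well. *Mki67* was at 0.788 in those of the control library and 0.227 in those of the library labelled KO, and markers of Paneth and goblet cells were at 21.7 and 69.0, of enterocytes at 6.68 and 17.3 and of enteroendocrine cells at 0.449 and 10.6. The part of such cells in the differences by phase was not tested.

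**Figure D3:**
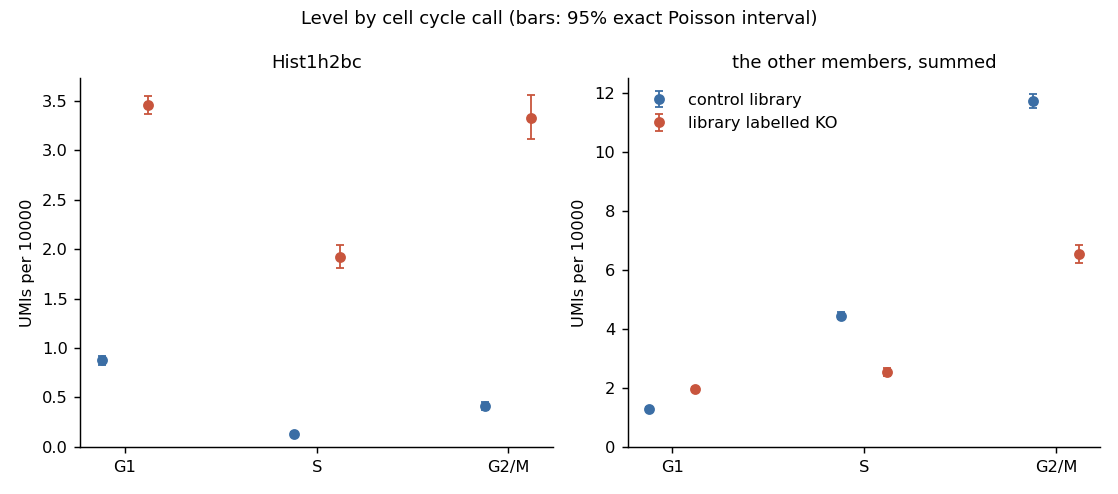
UMIs per 10000 of *Hist1h2bc* (left) and of the other clustered histone genes summed (right) in cells called G1, S or G2/M, for the control library (blue) and the library labelled KO (red); bars are 95% exact Poisson intervals. The other members climb from 1.29 in G1 to 11.7 in G2/M in the control library, while *Hist1h2bc* is lowest in S in both libraries, at 0.126 and 1.92.

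Gene by gene, 18 of the 25 members with at least 50 UMIs in G1 and S cells of the control library were higher past the fold in S than in G1 (background 7.46%), and 2 were lower (9.4%). *Hist1h2ap* (4.46), *Hist1h1b* (4.38), *Hist1h2bj* (4.18), *Hist1h2bl* (3.95) and *Hist1h3i* (3.86) had the highest log2 ratios of S over G1. *Hist1h1b* had 95 UMIs in G1 cells and 1286 in S cells. Those with the lowest ratios were *Hist1h2bc* (−2.80), *Hist3h2a* (−1.58), *Hist1h4i* (−0.73), *Hist1h1c* (−0.64) and Hist4h4 (0.14), and the first 4 of these are also higher past the fold in the library labelled KO over all cells. In the library labelled KO 6 of 15 members were higher past the fold in S (background 7.36%) and 3 lower (9.12%). The members tested differed between the libraries, so these counts are not compared. *Hist1h1a*, *Hist1h2bl*, *Hist1h3a* and *Hist1h3i* were under 50 UMIs in the library labelled KO. *Hist2h3c1* and *Hist3h2ba*, both among the lower, were under 50 in the control library.

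For G2/M over G1, 26 of 31 members were higher past the fold in the control library (background 6.64%) and 1 lower (10.1%), and in the library labelled KO 10 of 17 were higher (7.4%) and 1 lower (9.94%). Again the members tested differed between the libraries. For the 28 members with at least 20 UMIs in each library, the ratios of the libraries had a Spearman's rho of 0.93 (Pearson's r 0.89). For S over G1, 25 such members had a rho of 0.86 (r 0.77). These points are genes and not replicates, share the phase lists and the depth of their library, and carry no p. The ratio had the same sign in both libraries for 25 of the 28 and 19 of the 25.

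**Figure D4:**
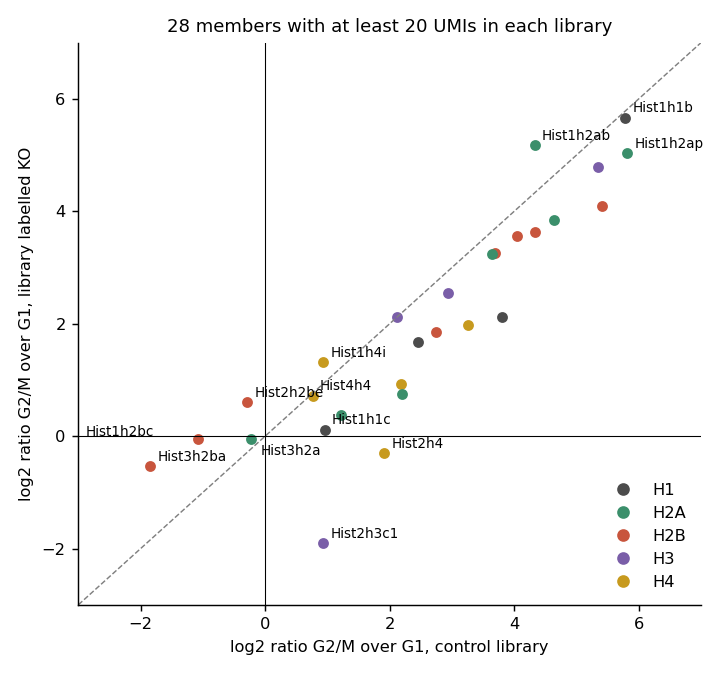
Log2 ratio of the level in G2/M over G1 cells in the control library (horizontal) against the library labelled KO (vertical), 1 point for each of 28 members with at least 20 UMIs in each library, coloured by histone type; the dashed line marks equal ratios. *Hist1h1b* lies at 5.78 and 5.67, and *Hist1h2bc* at −1.08 and −0.06.

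*Hist1h2bc* did not follow the cell cycle of most other members. *Hist3h2a* (−0.22 and −0.054) and *Hist3h2ba* (−1.84 and −0.54, from few UMIs) also had log2 ratios of G2/M over G1 below 0 in both libraries. The level of *Hist1h2bc* in G1, S and G2/M was 0.875, 0.126 and 0.412 per 10000 in the control library and 3.46, 1.92 and 3.33 in the library labelled KO. The ratio between libraries was 1.98 (1.90 to 2.06) in G1, 3.93 (3.69 to 4.19) in S and 3.01 (2.83 to 3.20) in G2/M. In the S cells 152 UMIs of the control library stood against 1047, although the control library had 571 such cells and the library labelled KO 179. *Hist3h2a* was also higher in each phase, with ratios of 1.38, 2.24 and 1.55, and so was *Hist1h4i*, with 1.12, 1.66 and 1.50. *Hist1h1b* was lower in each phase (−1.73, −1.77 and −1.84).

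Cells were then grouped by type. Each library was clustered on its own without clustered histone genes, and a cluster was named from markers of intestinal cell types. Stem-like cells numbered 1052 in the control library and 358 in the library labelled KO, enterocyte-like cells 231 and 316, Paneth- and goblet-like cells 189 and 188, and enteroendocrine-like cells 263 and 129. Cluster 9 of the control library (85 cells) met the marker rule for tuft cells through *Pou2f3*, *Trpm5* and *Rgs13*, but its leading genes held *Dll1*, *Bhlha15* and *Sox4* of secretory precursors and it had 0.894 UMIs of tuft markers per 10000 beside 16.9 of stem markers, so it is given by its number. In the library labelled KO the tuft genes *Dclk1*, *Trpm5* and *Rgs13* led an unnamed cluster of 79 cells. Unnamed cells numbered 743 and 820, with median depths of 2121 and 700 UMIs. They were different clusters in the libraries, since the control's comprised cluster 0 (432 cells, median 1190 UMIs) and cluster 3 (311 cells, median 17261), and those of the library labelled KO clusters 0, 5, 7 and 10 (medians from 618 to 2865). Members stood among the 10 leading genes of control cluster 2 (*Hist1h1a*, *Hist1h1b*) and of clusters 0 (*Hist1h1e*, *Hist1h1b*) and 3 (*Hist1h1d*) of the library labelled KO, and these are not results.

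In the control library, the members other than *Hist1h2bc* were at 6.85 UMIs per 10000 (6.75 to 6.96) in stem-like cells, and at 1.21 in enterocyte-like, 1.55 in Paneth- and goblet-like, 2.02 in enteroendocrine-like and 1.25 (1.08 to 1.44) in cluster 9. Stem-like cells were highest, and the intervals of enterocyte-like cells and cluster 9 overlapped. The same members in the library labelled KO were at 4.61 (4.47 to 4.75) in stem-like, 1.48 in enterocyte-like, 2.09 in Paneth- and goblet-like and 4.43 (4.17 to 4.71) in enteroendocrine-like cells. There the intervals of stem-like and enteroendocrine-like cells overlapped. The log2 ratio between libraries was −0.57 (−0.62 to −0.52) in stem-like, 0.28 (0.14 to 0.43) in enterocyte-like, 0.43 (0.26 to 0.61) in Paneth- and goblet-like and 1.13 (0.98 to 1.29) in enteroendocrine-like cells. The negative value in stem-like cells rests on which cells are called so. It was 0.24, 0.0072 and 0.056 when cells were clustered without regression, with both libraries together, or named from markers at 2 times the mean level, which left 83, 58 and 30 stem-like cells in the library labelled KO.

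**Figure D5:**
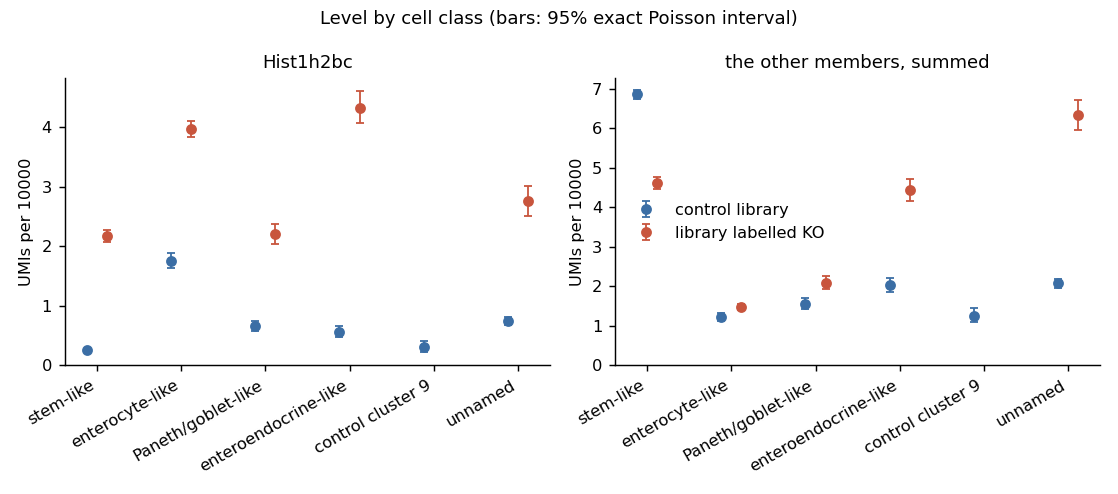
UMIs per 10000 of *Hist1h2bc* (left) and of the other clustered histone genes summed (right) in each cell class, for the control library (blue) and the library labelled KO (red); bars are 95% exact Poisson intervals, and control cluster 9 has no counterpart among the classes of the library labelled KO. *Hist1h2bc* is higher in the library labelled KO in each class found in both, from 0.255 and 2.17 in stem-like cells to 0.558 and 4.32 in enteroendocrine-like cells.

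*Hist1h2bc* was highest in enterocyte-like cells in the control library, with 1.76 UMIs per 10000, and lowest in stem-like cells, with 0.255. It was at 0.651 in Paneth- and goblet-like and 0.558 in enteroendocrine-like cells and at 0.309 in cluster 9, where the other members were also low and whose *Hist1h2bc* interval overlapped that of stem-like cells. In the library labelled KO it was at 3.96 in enterocyte-like, 2.17 in stem-like, 2.20 in Paneth- and goblet-like and 4.32 in enteroendocrine-like cells. The log2 ratios were 1.17 (1.06 to 1.29) in enterocyte-like, 3.09 (2.95 to 3.23) in stem-like, 1.75 (1.53 to 1.99) in Paneth- and goblet-like and 2.96 (2.70 to 3.22) in enteroendocrine-like cells. The interval thus lay above 1 in each class. Thinned to 2000 UMIs per cell, 5.64% of stem-like cells of the control library had a *Hist1h2bc* UMI and 28.6% of those of the library labelled KO (24.1% and 64.8% unthinned, at median depths of 21104 and 30616 UMIs, with 6 and 75 shallower cells left out when thinned). In enterocyte-like cells the thinned shares were 22.9% and 50.6%. Cluster 9 of the control library had the lowest thinned share, 2.38% (0.29% to 8.34%), and its interval overlapped that of the stem-like cells of that library. In the library labelled KO the interval of the stem-like cells (23.4% to 34.3%) overlapped that of the Paneth- and goblet-like cells (30.3%, 21.8% to 39.8%), and the part of free RNA in these shares was not tested.

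Single members differed between the classes. In stem-like cells 4 of 35 members were higher past the fold (background 5.95%) and 9 lower (4.08%). *Hist1h1b* had 3590 UMIs (1.63 per 10000) in stem-like cells of the control library and 432 (0.499) in those of the library labelled KO, a log2 ratio of −1.71 (−1.85 to −1.56). In enteroendocrine-like cells, the hormone-producing cells of the epithelium, 5 of 9 members were higher (background 6.01%) and 2 lower (1.85%). *Hist1h1c* had 38 UMIs there (0.146) in the control library and 325 (1.37) in the library labelled KO, a ratio of 3.23 (2.74 to 3.75), and *Hist1h4i* had 10 and 71 (2.96). *Hist1h1b* had 49 and 6 (−2.90) and *Hist1h2ap* 32 and 5 (−2.55). These genes, among the highest in S over G1 in the control library, were thus lower while the sum of the class was higher. The control class held cluster 12 (14 cells), named from *Chgb*, *Sct* and *Tph1*. Its leading genes held *Pclaf*, *Ube2c* and *Hmgb2* of cycling cells and also *Lyz1* and *Olfm4*. Of the called cells of the class 14 of 195 were G2/M in the control library and 4 of 121 in the library labelled KO. The part of these cells was not tested. *Mki67* was at 0.162 and 0.0252 in the class, and Paneth and goblet markers at 38.1 and 170 beside 209 and 388 for its own markers, whose part was not tested. In enterocyte-like cells 1 of 6 members was higher (background 4.74%) and 0 lower (1.97%), and in Paneth- and goblet-like cells 2 of 6 (2.74%) and 0 (2.35%). In unnamed cells, which are not of 1 type, 10 of 10 were higher (11.6%) and 0 lower (2.4%).

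Stem-like clusters of either library fell far apart. In the control library cluster 2 (359 cells) had 10.99 UMIs of the members other than *Hist1h2bc* per 10000 and cluster 4 (222 cells, led by mitotic genes such as *Aspm* and *Cenpf*) 10.2, while clusters 8 and 1 (93 and 378 cells) had 1.19 and 1.14. In the library labelled KO, cluster 3 had 15.1 (14.5 to 15.7), cluster 11 (30 cells, led by genes of S phase such as *Cdc6* and *Mcm5*) 6.16 and cluster 1 (177 cells) 1.50. Cluster 3 held 151 cells of a median of 2400 UMIs, against 34701 in cluster 1, and gave 2436 of the 3991 UMIs of these members in the class. It was named from *Olfm4*, *Axin2*, *Smoc2* and *Tnfrsf19*, without *Lgr5*. Its leading genes held mitotic genes such as *Cdc20*, *Kif20a* and *Hmmr*, and *Gm26917*, which also led unnamed clusters of that library. The control class had 487 S and 329 G2/M calls among 1034 called cells, and the class in the library labelled KO 105 and 68 among 251. Within the stem-like class the members other than *Hist1h2bc* were at 4.84 and 3.09 in S cells (−0.65, −0.74 to −0.55), at 12.4 and 7.57 in G2/M cells (−0.71) and at 1.22 and 1.60 in G1 cells (0.38). *Mki67* was at 1.67 and 0.739 in the class and Paneth and goblet markers at 10.5 and 27.0, and their part was not tested. Across the 13 clusters of the control library the level of these members and that of the G2/M list had a rho of 0.72, and across the 12 of the library labelled KO 0.80, and with the S list 0.30 and 0.64, while *Hist1h2bc* and the S list had −0.86 and −0.54. The points are clusters of 1 library with different depths, and carry no p.

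Depth moved with these results. In cells with at least 2000 UMIs the members other than *Hist1h2bc* were at 4.50 and 2.92 UMIs per 10000 (log2 ratio −0.62, −0.66 to −0.58), with 7 of 40 members higher past the fold (background 8.21%) and 13 lower (4.56%). In cells with under 2000 UMIs they were at 7.96 (7.18 to 8.79) in 444 control cells and 13.5 (12.7 to 14.4) in 890 cells of the library labelled KO (0.77, 0.60 to 0.94), with 3 of 8 higher (7.32%) and 0 lower (0.961%). Shallow cells of both libraries thus had more of these molecules per UMI, and the library labelled KO had a larger share of such cells. *Hist1h2bc* was at 0.843 and 3.10 in the shallow cells (1.88) and at 0.546 and 3.08 in the deeper ones (2.50). *Hist1h1b* was at 1.54 and 1.62 in the shallow cells (0.07, −0.35 to 0.50) and at 0.948 and 0.188 in the deeper ones (−2.34). The part of depth in the differences between libraries was not tested.

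Other genes of histone supply were read from fixed lists over all cells, where 8.31% of all genes tested were higher and 4.38% lower past the fold and the median log2 ratio was 0.17. Of 11 replacement histone genes 9 had at least 50 UMIs, 0 were higher past the fold and 2 lower, with a median log2 ratio of −0.08 and a sum of 49.2 UMIs per 10000 in the control library and 47.4 in the library labelled KO. *Cenpa*, the H3 form of centromeres, was at 0.680 and 0.259 (−1.39), *H2afx*, the H2A form phosphorylated at DNA breaks, at 0.666 and 0.329 (−1.02) and *H2afv* at 2.73 and 1.58 (−0.79). The highest were *H2afj* (4.17 and 7.07, 0.76), *H3f3b* (0.17) and *H1f0* (0.13).

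Of the 10 factors of histone mRNA synthesis and processing tested, 0 were past the fold in either direction, with a median of −0.32. *Slbp*, which binds the hairpin, was at 0.821 and 0.507 UMIs per 10000 (−0.70, −0.79 to −0.60), the exonuclease gene *Eri1* at 0.291 and 0.201 (−0.53) and *Lsm11* of the U7 particle at 0.114 and 0.0796 (−0.52). Those with the highest ratios were *Upf1* (−0.017), *Lsm10* (−0.061) and *Npat* (−0.20), the co-activator of histone genes. *Zfp473* had 16 and 4 UMIs. Of the 12 histone chaperones 0 were higher and 4 lower, with a median of −0.44, among them *Asf1b* (686 and 137 UMIs, −1.65), *Chaf1a* (−1.17), *Chaf1b* (−1.11) and *Nasp* (−1.01). *Ipo4* (0.45), *Daxx* (0.17) and *Hira* (−0.016) had the highest ratios. Of the S phase list 29 of 43 genes were lower past the fold and 0 higher (median −1.11), and of the G2/M list 39 of 54 lower and 0 higher (median −1.37). In stem-like cells 1 of 12 chaperones, 12 of 43 S genes and 25 of 54 G2/M genes were lower (background 4.08%), and 0, 0 and 2 higher (5.95%). In enterocyte-like cells 0 of 9, 1 of 15 and 4 of 23 were lower (1.97%), and 2, 1 and 1 higher (4.74%). In cells with under 2000 UMIs the S and G2/M sums had log2 ratios of 0.065 and 0.0073. The part of class and depth was not tested. *Cenpa*, *Nasp*, *Slbp*, *Casp8ap2* and *Chaf1b* stand both in a phase list and in 1 of the other lists, so that these counts are not separate.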

How the data were processed

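The 2 libraries were single-cell RNA-seq of enteroids, 1 control and 1 labelled KO. Per the labels and the study's methods, the authors made the deposited values with bcl2fastq 2.17.1.14 and Cell Ranger 3.1 on mm10, which counted UMIs per gene and cell, and Seurat 3.1.4 was used afterwards. The deposited tables hold these counts without normalization, for cells that had already been filtered.

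Cells and totals per library are given above. All cells were kept. Scrublet in scanpy 1.11.5 called 10 control cells and 0 cells of the library labelled KO as doublets, which were removed only in an alternative. Levels and intervals were computed with scipy 1.17.1, numpy 2.4.6 and pandas 2.3.3 under Python 3.11.15, and the steps were tested on simulated data. Clusters were made in R 4.3.3 with Seurat 5.3.0 for each library, with LogNormalize, 2000 variable genes less the clustered histone genes among them (21 and 26), UMI count and mitochondrial percent regressed out, the first 20 components and resolution set to 0.9. A cluster was named for the class with most markers at 1.5 times the mean level of both libraries, with at least 10 UMIs, when there were at least 3. It stayed unnamed when markers of another class outnumbered its own among the 10 genes of largest fold. It also did so when its own were absent there and either low-quality genes stood there or the cluster was shallow for its library. Depth was judged against the median of the same library, which was lower in the library labelled KO, so shallower clusters could be named there. Control cluster 9 met the rule for tuft cells and was left without a name once its leading genes were seen. A rebuilt name can differ from that of the study. Phases were called by Seurat on cells thinned to 5000 UMIs.

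The members, lists and alternatives were chosen with earlier results of these data known. Named members are the 3 of each type with the most UMIs, the 5 highest and 5 lowest log2 ratios over all cells, and the 5 highest and 5 lowest of S over G1 in the control library, among those with at least 50 UMIs. Of each list the 3 highest and 3 lowest are named. Other members (*Hist1h1d*, *Hist1h2ab*, *Hist1h2ac*, *Hist1h2ah*, *Hist2h2ac*, *Hist2h2be*, *Hist1h4m*) and the leading genes of a cluster were picked once values were known. Alternatives were other depths, totals, minimums, cluster settings and phase calls. Replicates did not exist, so that none could be left out.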

Additional observations from a re-analysis of the deposited data

Results flagged for a closer look

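The ratio of the library labelled KO over the control library had opposite signs in enteroendocrine-like and stem-like cells for 6 sums. The log2 ratio was 1.76 and −0.069 for all members, 1.13 and −0.57 for the members other than *Hist1h2bc*, 1.35 and −0.68 for H1, 0.77 and −0.56 for H2A, 1.41 and −0.85 for H3, and 1.06 and −0.20 for H4. These pairs were picked as the highest and the lowest ratio among the named classes, without the unnamed cells. Each value comes from 1 library per condition, so the difference between classes was not tested. The enteroendocrine-like values come from 263 and 129 cells, and the value of the members other than *Hist1h2bc* in stem-like cells turned positive under 3 of the other ways of naming cells.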

How the results depend on the processing

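No paired analysis was possible because each condition was 1 library. All values are log2 ratios of the library labelled KO over the control library unless named otherwise. *Hist1h2bc* stayed above 1 in every alternative run for it, from 1.88 in cells with under 2000 UMIs to 2.50 in those with at least 2000. The direction of the other members did not hold across depths, and the cause was not tested. With each cell thinned to 500 UMIs all members were at 1.18, those other than *Hist1h2bc* at 0.95, H1 at 1.02, H2A at 0.59, H2B at 2.11, H3 at 0.53 and H4 at 1.23. Of 8 members 5 were higher past the fold (5.11% of all genes) and 0 lower (1.17%). *Hist1h1b* (0.063), *Hist1h1e* (1.39), *Hist1h2ae* (0.18), *Hist1h3a* (0.99), *Hist1h3i* (0.76), *Hist1h4d* (1.01), *Hist2h2bb* (0.67) and Hist4h4 (0.18) then turned, and list medians were −0.17 for mRNA factors, −0.40 for S and −0.13 for G2/M. With equal weight per cell the sums in that order were 1.20, 0.96, 0.99, 0.72, 2.06, 0.60 and 1.19. In cells with under 2000 UMIs, chosen after seeing the data, they were 0.92, 0.77, 0.76, 0.77, 1.62, 0.32 and 0.87, with 3 of 8 members higher (7.32%) and 0 lower (0.961%). There *Hist1h1a* (1.93), *Hist1h1b* (0.071), *Hist1h1e* (0.88), *Hist1h2ap* (0.49), *Hist1h3a* (1.15), *Hist1h3e* (1.35), *Hist1h4d* (0.63), *Hist2h2bb* (0.85), *Hist2h3c1* (−0.24) and Hist4h4 (2.15) turned. Cells with at least 1000 genes, and likewise those with at least 2000 UMIs, gave 0.25 for all members, −0.62 for the others, −0.67 for H1, −0.70 for H2A and −0.26 for H4. The total without mitochondrial and ribosomal protein genes gave 0.13, −0.67, −0.70 (H1), −0.77 (H2A), 1.80 (H2B), −1.05 (H3) and −0.30 (H4). All members without *Hist1h2bc* were at −0.48. Members higher past the fold numbered 11 of 54 at a minimum of 20 UMIs (10.5% of all genes), 12 of 61 at 1 UMI in each library (13.2%) and 4 of 20 at 200 UMIs (5.52%). Those lower past it numbered 14 (5.32%), 15 (5.98%) and 5 (3.48%) in the same order. In stem-like cells all members were at 0.49 without regression, 0.29 with both libraries clustered together, 0.16 with markers at 2 times the mean, −0.28 with histone genes kept and −0.13 in cells with at least 1000 genes. The first 3 of these settings turned the members other than *Hist1h2bc* to 0.24, 0.0072 and 0.056. Enteroendocrine-like cells were at 1.91 with resolutions of 0.5 and 1.4, 2.01 without regression and 2.09 together. Calling phases without thinning gave 1.27 in G1, 0.14 in S and 0.40 in G2/M for all members, 0.11 in G2/M for those other than *Hist1h2bc*, 2.41 and 1.54 for G2/M over G1 in the control library and in that labelled KO, and −0.024 for S over G1 in the latter. Thinning to 2000 UMIs for the call gave 1.25 in G1 and 0.22 in S, and 0.96 and −0.067 for S over G1. Removal of predicted doublets turned none of them.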

Other observations

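The unnamed cells, which come from clusters of different depth and leading genes in the libraries, had 2.07 UMIs of the members other than *Hist1h2bc* per 10000 (1.96 to 2.19) in the control library and 6.33 (5.96 to 6.72) in the library labelled KO. In the latter the highest clusters were cluster 7 (105 cells, median 1000 UMIs) with 12.0 and cluster 0 (494 cells, median 618 UMIs) with 11.3. All 10 members with at least 50 UMIs in unnamed cells were higher past the fold (background 11.6%), among them *Hist1h1b* with 136 and 101 UMIs (log2 ratio 1.42) and *Hist1h1e* with 350 and 262 (1.43). *Mki67* was at 0.258 and 0.560 per 10000 in the unnamed cells, and at 1.67 and 0.739 in stem-like cells.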
